A study of Homo sapiens with 15 samples.

Results

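The genes described here make or supply the sugar and sulfate groups of mucins and proteoglycans: GCNT3, GCNT1, SLC26A2, PAPSS2, PAPSS1, EXT1, GALNT1, GALNT2, GALNT3 and C1GALT1. They were selected by gene symbol, as all probe sets of the array annotated with one of these names alone. The array holds 17 such probe sets for the 10 genes, among 22283 probe sets and 11963 genes with a probe set of a single symbol. Of the 10 genes, 8 were bright enough to test and 2, GCNT1 and GALNT3, were not. No measured value enters the rule, but the set was chosen from genes that earlier results of the same arrays had brought up, so the tests below describe the members and are not independent evidence about the set.

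The cells were A549, which the labels call a bronchial line and which is known as a lung adenocarcinoma line of epithelial origin. They were treated with interleukin-13 (IL-13) for 4 h, 12 h or 24 h or left untreated for 24 h or 0 h, and total RNA of each of the 5 groups was hybridised to 3 Affymetrix human arrays, named a, b and c. The labels give neither the dose of IL-13 nor whether the 3 arrays of a group came from separate cultures, so p-values reflect array-to-array spread alone, and this may be technical. Untreated arrays exist for 24 h and 0 h only, and at 4 h and 12 h the effect of IL-13 and that of time in culture cannot be told apart. In RNA from a whole culture, fewer cells making a transcript and less transcript per cell cannot be told apart either.

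Mucins carry many O-linked glycans, and their building proceeds in steps. Polypeptide GalNAc transferases (the GALNT family) attach the first sugar, N-acetylgalactosamine, to serine or threonine. C1GALT1 adds galactose to form core 1, and the core 2 enzymes GCNT1 and GCNT3 add a branch to it. GCNT3 is the form found in mucus-secreting tissues and can also make core 4. Sulfation needs sulfate inside the cell, which SLC26A2 takes up, and its activated form PAPS, which PAPSS1 and PAPSS2 synthesise. SLC26A2, mutated in diastrophic dysplasia, and the PAPS synthases serve all sulfated products of a cell and not mucins alone. EXT1 acts on another class of glycan: with EXT2 it polymerises the chain of heparan sulfate. IL-13 is a cytokine of allergic airway inflammation that acts through STAT6 and is known for inducing mucous cells in airway epithelium.

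The 2 of these genes that differed most from the matched control after 24 h of IL-13, GCNT3 and SLC26A2, have start sites of different base composition, and the 250 bases before each start are shown for that reason. They come from RefSeq on build GRCh38.p14, run 5′ to 3′ along the gene and are in lower case, with a GC box (GGGCGG on either strand) in capitals. The window of GCNT3 is chr15:59611533-59611782 on the plus strand and that of SLC26A2 is chr5:149960508-149960757 on the plus strand.
GCNT3: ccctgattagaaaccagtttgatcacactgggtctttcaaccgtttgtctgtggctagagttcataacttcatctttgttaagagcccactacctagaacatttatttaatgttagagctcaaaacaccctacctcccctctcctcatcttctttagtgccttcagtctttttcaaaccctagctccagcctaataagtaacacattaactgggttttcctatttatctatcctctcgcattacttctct
SLC26A2: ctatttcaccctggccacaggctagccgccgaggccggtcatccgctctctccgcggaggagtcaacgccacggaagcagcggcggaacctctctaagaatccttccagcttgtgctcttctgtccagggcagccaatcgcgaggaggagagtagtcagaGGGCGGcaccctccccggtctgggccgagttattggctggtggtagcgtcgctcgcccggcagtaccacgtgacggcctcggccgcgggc
Guanine and cytosine made up 40.4% of the GCNT3 window and 66% of the SLC26A2 window, beside a median of 58% over 35116 windows. SLC26A2 held 1 GC box and GCNT3 none. RefSeq windows were at hand for 8 of the 10 members, without PAPSS2 and EXT1, and numbered 13 in all. GCNT1 and GALNT1 have several windows each, so the 13 are not separate genes. Of the 13, 9 held a GC box against 42.6% of all windows. The STAT6 type motif TTCNNNNGAA, searched on both strands, was in 0 of the 13 windows and in 5.38% of all windows. The shorter STAT motif TTCNNNGAA was in 0 of the 13 and in 6.57% of all. These counts say only which letters stand in these windows.

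The deposited values are intensities on a linear scale, and levels are given below as deposited. Differences are in log2 of the quantile-normalized signal with a pseudocount of 20, ± the standard error of the limma fit over all 15 arrays, so they understate changes of dim genes. A gene is called where its Benjamini-Hochberg adjusted p over the 6884 tested genes is under 0.05. Median signal per array ran from 56.7 to 72.5, with group means of 59.3 in IL-13 24 h and 69.5 in control 24 h. The 3'/5' ratio of beta-actin, a sign of RNA integrity, averaged 1.18 in IL-13 24 h and 1.17 in control 24 h, and 1.001 in control 0 h. It averaged 1.03 in IL-13 4 h and 1.08 in IL-13 12 h. The same ratio of GAPDH ran from 0.844 to 0.918 over all arrays, with means of 0.869 in IL-13 24 h, 0.896 in control 24 h and 0.881 in control 0 h. Of 6 epithelial markers 5 were bright enough to test, among them KRT8 and KRT18, but EPCAM was not, at 35.3 to 75.4 signal units. Markers of leukocytes (1 of 3 bright enough), fibroblasts (1 of 4) and endothelium (1 of 3) were mostly dim. The summed fibroblast signal averaged 125 in IL-13 24 h and 209 in control 24 h, and COL1A1, the bright gene of that set, 72.4 in IL-13 24 h and 149 in control 24 h. PTPRC, which defines leukocytes, was at 2.83 to 26.6. The gene bright enough was CD3E among the leukocyte markers, at 45.8 to 137, and PECAM1 among those of endothelium, at 48.2 to 83.8. Of the goblet cell markers 3 of 4 were bright enough. The summed signal of all 4 averaged 1183 in IL-13 24 h and 1209 in control 24 h, against 939 in control 0 h. Most of it was AGR2, at 968 in IL-13 24 h, 917 in control 24 h and 710 in control 0 h. SPDEF was at 103 in IL-13 24 h and 154 in control 24 h, TFF3 at 36.6 and 65.8, and CLCA1 at 74.8 and 72.3. What part of any result moves with these values was not tested.

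Whether 24 h of IL-13 changed these genes was asked against untreated cells of the same time. GCNT3 rose 2.04-fold, SLC26A2 2.01-fold, EXT1 1.42-fold and PAPSS2 1.41-fold. PAPSS1, GALNT1, GALNT2 and C1GALT1 were not called. The 4 genes called higher of 8 tested stand beside 3.94% of all tested genes called higher, and the 0 called lower beside 3.07%. Since these arrays also brought up the set, nothing is read from that share. The median difference was 0.29 over the 8 members and 0.0017 over all 6884 genes, and 6 of the 8 were above 0.

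GCNT3, measured by probe set 219508_at, had signals of 980.3, 751 and 884 in IL-13 24 h, against 411, 375 and 415 in control 24 h. Every treated array stood above every control array. The rise was 1.03 ± 0.14 (2.04-fold, adjusted p = 0.000264). Its locus is chr15:59611783-59622723 in GRCh38.p14. Over time, GCNT3 was at 436, 491 and 461 in control 0 h, at 678, 719 and 494 after 4 h of IL-13 and at 558, 784 and 769 after 12 h. All treated arrays lay above those of 0 h, by the narrowest margin for array c at 4 h.

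SLC26A2, on 205097_at, had signals of 724, 636 and 662 in IL-13 24 h, against 345, 346 and 273 in control 24 h. The groups did not overlap, and the rise was 1.005 ± 0.101 (2.01-fold, adjusted p = 1.99e-05). The gene lies at chr5:149960758-149987400. Its signals were 481, 469.7 and 428 in control 0 h, 704, 719.7 and 629 after 4 h of IL-13 and 785, 843 and 762 after 12 h. The untreated cells at 24 h were the lowest group and the 12 h cells the highest. Thus the 24 h difference from the matched control held both a level above 0 h in treated cells and a level below 0 h in untreated cells. GCNT3 and SLC26A2 kept their calls at 24 h under all 18 other settings tried, with differences of 0.95 to 1.30 for GCNT3 and 0.90 to 1.25 for SLC26A2.

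PAPSS2, the PAPS synthase whose loss causes a skeletal dysplasia, had signals of 311, 295 and 364 in IL-13 24 h on its brightest probe set, 203060_s_at, against 228, 204 and 235 in control 24 h. The groups did not overlap. The rise was 0.50 ± 0.12 (1.41-fold, adjusted p = 0.0151). Its signals were 196, 207 and 231 in control 0 h, 281, 258 and 233 after 4 h of IL-13, and 312, 291 and 242 after 12 h. PAPSS2 had other probe sets: with each probe set tested on its own, 203058_s_at differed by 0.34 ± 0.12 (adjusted p = 0.104) and 203059_s_at by 0.16 ± 0.15 (adjusted p = 0.555). All 3 stood higher with IL-13, and only the brightest was called. The call of PAPSS2 was lost without array c of IL-13 24 h, where the difference was 0.42 (adjusted p = 0.0903).

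EXT1, on 201995_at, had signals of 279.7, 254 and 227 in IL-13 24 h, against 188, 189.9 and 159 in control 24 h. The groups did not overlap, and the rise was 0.50 ± 0.11 (1.42-fold, adjusted p = 0.0138). EXT1 was at 168, 188 and 209 in control 0 h, at 258, 268 and 314 after 4 h of IL-13, and at 244, 237 and 244 after 12 h. Its highest group was the 4 h cells. The other EXT1 probe set, 214985_at, was too dim to test, at 3.62 to 19.2 in IL-13 24 h and 17.1 to 23.5 in control 24 h. It differed by -0.18 ± 0.27. The EXT1 call was lost with the mean of both probe sets (0.16, adjusted p = 0.573), without array c of control 24 h and without array a of IL-13 24 h.

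**Figure D1:**
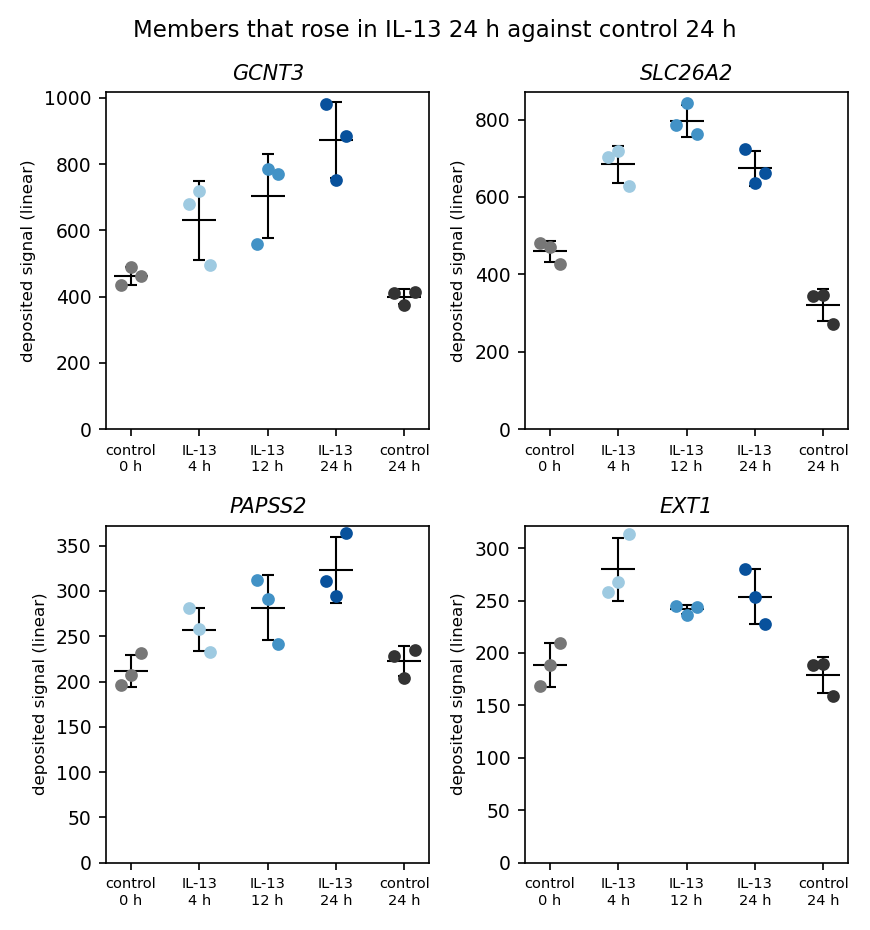
Deposited signal (linear, vertical axis from 0) of GCNT3, SLC26A2, PAPSS2 and EXT1 on their brightest probe sets in the 5 groups; points are the 3 arrays of a group, the long bar is the mean and the whiskers are 1 SD. All 3 arrays of IL-13 24 h lie above all 3 of control 24 h for each gene, and SLC26A2 is lower in control 24 h than in control 0 h.

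The members that attach the first sugar did not pass. GALNT1 had signals of 659, 587 and 644 in IL-13 24 h, against 669.6, 599 and 508 in control 24 h, on 201723_s_at. These overlapped, and the difference was 0.01 ± 0.12 (adjusted p = 0.968, 95% interval -0.25 to 0.27). Its other probe sets gave other values. Set 201722_s_at read 575, 554 and 776 in IL-13 24 h, against 468, 531 and 420.3 in control 24 h, without overlap and with a difference of 0.34 ± 0.11 (adjusted p = 0.0719). Set 201724_s_at differed by 0.21 ± 0.12 (adjusted p = 0.323) there, and by 0.50 ± 0.12 between IL-13 24 h and control 0 h (adjusted p = 0.0201), the only member set besides the brightest ones that was called in any of the 5 comparisons. Sets of this kind can match several transcripts, and which transcripts they match was not examined.

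GALNT2 had signals of 633, 644 and 623 in IL-13 24 h, against 601, 718 and 571 in control 24 h, on 217788_s_at, so the groups overlapped. The difference was -0.07 ± 0.13 (adjusted p = 0.790, 95% interval -0.34 to 0.21). Deposited means of GALNT2 went the other way, at 633 in IL-13 24 h and 630 in control 24 h. Its dimmer set 217787_s_at differed by -0.19 ± 0.18 (adjusted p = 0.559). Against control 0 h that set stood at -0.51 ± 0.18 in IL-13 24 h, with all arrays lower, but was not called (adjusted p = 0.0978). GALNT3, the initiating enzyme that also protects the phosphate hormone FGF23 from cleavage, was too dim to test at 28.6, 34.6 and 22.3 in IL-13 24 h and 34.6, 28.3 and 30.4 in control 24 h. Without the filter on dim genes its difference was 0.09 ± 0.23 (adjusted p = 0.898), although its deposited means were 28.5 in IL-13 24 h and 31.1 in control 24 h. The filter stood at a mean log2 signal of 6.33, and C1GALT1 lay just inside it at 6.64 and GALNT3 just outside at 5.86.

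C1GALT1, the core 1 enzyme, had signals of 77.7, 83.0 and 95.5 in IL-13 24 h, against 73.5, 92.3 and 104 in control 24 h. The ranges overlapped, and the difference was 0.09 ± 0.17 (adjusted p = 0.791, 95% interval -0.26 to 0.43). Before normalization the mean signals went the other way, at 85.4 in IL-13 24 h and 89.8 in control 24 h. GCNT1, the other core 2 enzyme, was too dim to test. It had signals of 35.5, 32.5 and 23.4 in IL-13 24 h and 33.8, 43.2 and 46.6 in control 24 h, and without the filter it differed by -0.11 ± 0.33 (adjusted p = 0.922). PAPSS1, the other PAPS synthase, had signals of 288, 311 and 358 in IL-13 24 h, against 398, 335 and 299.6 in control 24 h. These overlapped, with a difference of -0.13 ± 0.12 (adjusted p = 0.514, 95% interval -0.38 to 0.11). Whether PAPSS2 and PAPSS1 differ in their response was not tested.

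**Figure D2:**
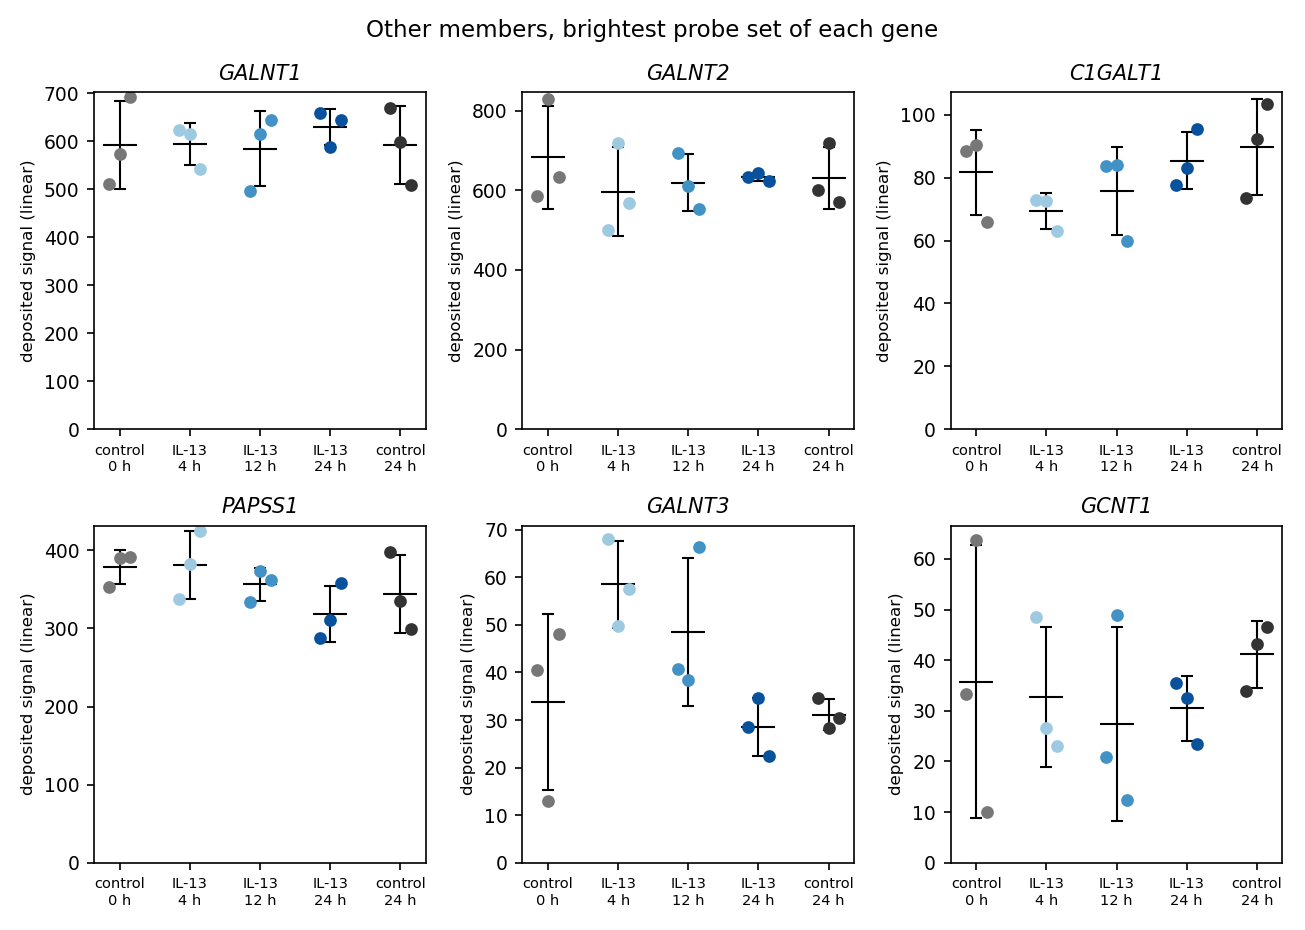
Deposited signal (linear, vertical axis from 0) of GALNT1, GALNT2, C1GALT1, PAPSS1, GALNT3 and GCNT1 on their brightest probe sets in the 5 groups; points are the 3 arrays of a group, the long bar is the mean and the whiskers are 1 SD. Arrays of IL-13 24 h and control 24 h overlap for each of these genes.

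**Figure D3:**
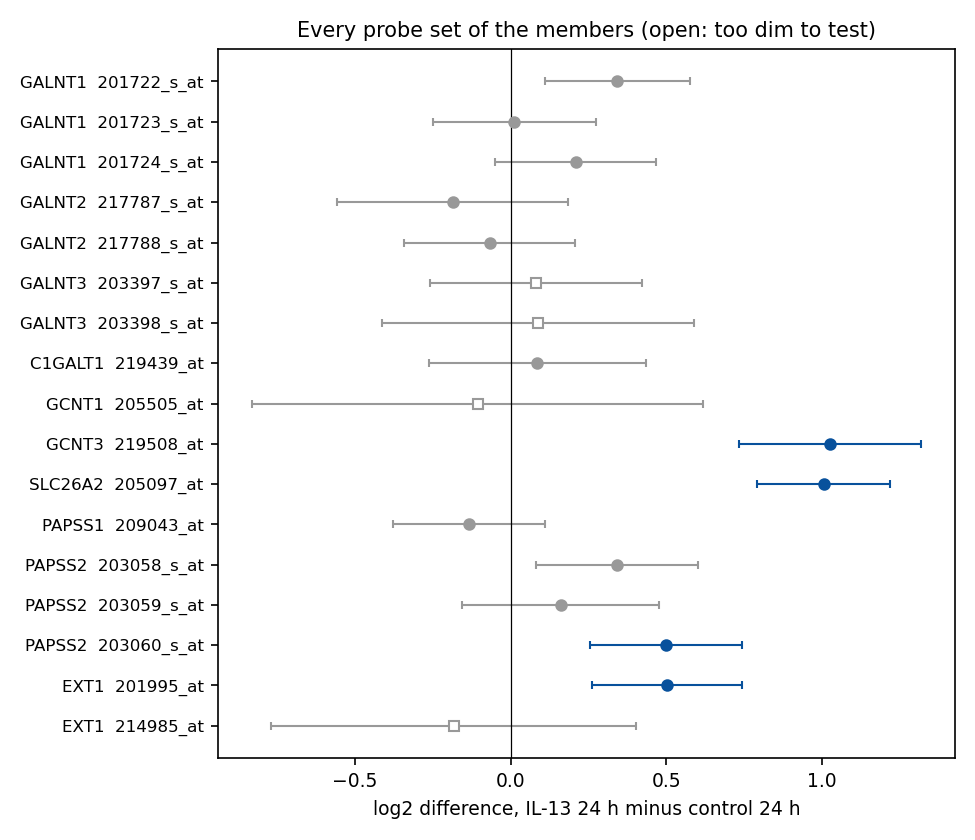
Log2 difference of IL-13 24 h minus control 24 h for each of the 17 probe sets, with 95% intervals; blue points passed the adjusted threshold, grey ones did not and open squares were too dim to test. The 3 sets of GALNT1 run from 0.01 to 0.34 and those of PAPSS2 from 0.16 to 0.50.

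Time in culture without IL-13 was examined by setting control 24 h against control 0 h. SLC26A2 fell by 0.48 on the log2 scale with a standard error of 0.10 (1.39-fold, adjusted p = 0.0139), and all its control 24 h signals lay below all those of control 0 h. It was the single member called lower of 8 tested, beside 1.89% of all tested genes, and 0 members were called higher, beside 1.73%. The call was lost without array c of control 24 h, without array a or b of control 0 h and when other groups were left out of the model, and the difference ran from -0.72 to -0.37 over the settings tried. GCNT3 also stood below control 0 h on every array, but its difference of -0.17 ± 0.14 did not pass (adjusted p = 0.530). PAPSS2 (0.05 ± 0.12) and EXT1 (-0.10 ± 0.11, adjusted p = 0.662) overlapped between the groups. The median was -0.07 over the members and -0.0030 over all genes.

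How early the members differed was asked against untreated cells at 0 h. After 4 h of IL-13, SLC26A2 was 0.57 ± 0.10 higher (1.48-fold, adjusted p = 0.00575) and EXT1 0.54 ± 0.11 higher (1.46-fold, adjusted p = 0.0202). GCNT3 stood at 0.43 ± 0.14 (adjusted p = 0.196) and PAPSS2 at 0.29 ± 0.12 (adjusted p = 0.349), with no overlap of their arrays. Members called higher numbered 2 of 8, beside 0.349% of all tested genes, and 0 were called lower, beside 0.872%. With median scaling neither was called, SLC26A2 having an adjusted p of 0.0924. EXT1 was also lost without array c of IL-13 4 h or array a or b of control 0 h, with the mean of probe sets and with only these groups. GALNT3 had 68.1, 49.8 and 57.5 signal units after 4 h of IL-13, against 40.4, 13.0 and 48.0 in control 0 h, so its groups did not overlap, but without the filter its difference of 0.57 ± 0.23 did not pass (adjusted p = 0.470).

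After 12 h of IL-13, SLC26A2 was 0.79 ± 0.10 higher than at 0 h (1.73-fold, adjusted p = 0.000175) and GCNT3 0.59 ± 0.14 higher (1.51-fold, adjusted p = 0.0200). PAPSS2 stood at 0.40 ± 0.12 (adjusted p = 0.0596) and EXT1 at 0.36 ± 0.11 (adjusted p = 0.0896), again with all treated arrays above those of 0 h. This gave 2 members called higher of 8, beside 1.57% of all tested genes, and 0 called lower, beside 2.59%. The GCNT3 call at 12 h was lost with median scaling, without array a or c of control 0 h and without array b or c of IL-13 12 h. The medians were 0.19 over the members at 12 h and 0.16 at 4 h, and 0.0071 and 0.0039 over all genes.

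Against 0 h, the 24 h cells had GCNT3 0.86 ± 0.14 higher (1.81-fold, adjusted p = 0.00105), SLC26A2 0.53 ± 0.10 (1.44-fold, adjusted p = 0.00391), PAPSS2 0.55 ± 0.12 (1.47-fold, adjusted p = 0.00699) and EXT1 0.40 ± 0.11 (1.32-fold, adjusted p = 0.0420). Members called higher numbered 4 of 8, beside 3.4% of all tested genes, and 0 were called lower, beside 3.47%. PAPSS2 lost the call without array c of IL-13 24 h (adjusted p = 0.0513), and EXT1 kept it in 8 of 18 other settings. PAPSS1 stood at -0.24 ± 0.12 (adjusted p = 0.239). The mean signal of GCNT3 was 463 at 0 h, 630.5 at 4 h, 704 at 12 h and 872 at 24 h of IL-13, and that of PAPSS2 was 212, 257, 282 and 323. SLC26A2 was at 459, 684, 797 and 674, and EXT1 at 189, 279.8, 242 and 253. GCNT3 and PAPSS2 thus had their highest mean at 24 h, SLC26A2 at 12 h and EXT1 at 4 h, but differences between the treated times were not tested. The 3 comparisons with 0 h share its arrays, and those with control 24 h share that group, so the values are set side by side only.

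**Figure D4:**
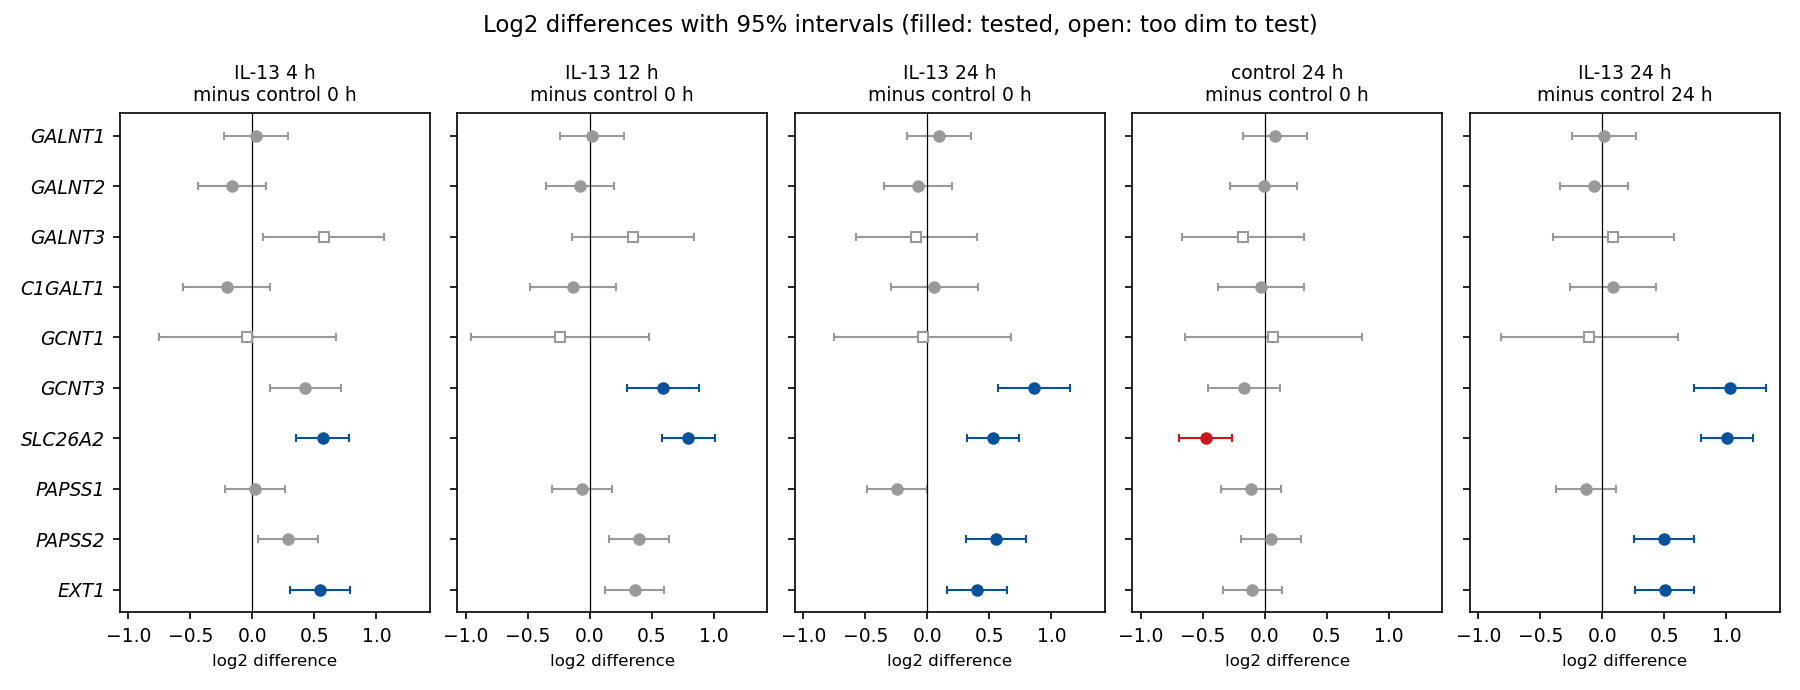
Log2 differences of the 10 genes in the 5 comparisons, with 95% intervals; blue points were called higher, the red point was called lower, grey points did not pass and open squares were too dim to test. GCNT3 and SLC26A2 lie near 1 in IL-13 24 h minus control 24 h. On the brightest probe sets shown, GALNT1, GALNT2 and C1GALT1 have intervals across 0 in all 5 comparisons. Dimmer sets of GALNT1 and GALNT2, not shown here, have intervals off 0 in IL-13 24 h minus control 0 h. For GALNT1, 201722_s_at is also off 0 in IL-13 24 h minus control 24 h, and 201724_s_at in control 24 h minus control 0 h.

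The share of called genes that were higher depended on scaling. Quantile normalization gave 482 called genes for IL-13 24 h against control 24 h, 56.2% of them higher. Scaling each array to a common median gave 95.5% higher and moved the median difference of all genes by 0.17, and scaling to the median of the tested genes gave 73.5% higher. For control 24 h against control 0 h the share called higher was 47.8%, with 4.46% under median scaling (median gene at -0.18) and 28.6% under scaling to the tested genes. Against 0 h it was 28.6% at 4 h and 37.8% at 12 h of IL-13, with 17.1% and 15.6% under median scaling. GCNT3 and SLC26A2 kept both call and direction at 24 h against the matched control under each of these scalings.

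The other genes of the same pathways were read from 10 lists. Of 7 tested GalNAc transferases, 0 were called in either direction after 24 h of IL-13 against control 24 h, with a median of -0.01, and the 0 compares with 3.94% higher and 3.07% lower over all genes. Unadjusted p-values under 0.05 there were those of GALNT6 (-0.38 ± 0.17) and GALNT10 (-0.21 ± 0.09). GALNT10 was called higher in control 24 h against control 0 h (0.37 ± 0.09, adjusted p = 0.0263), lost the call in 10 of 18 other settings, all 3 other scalings among them, and had its other probe set at -0.38. Of 7 tested core and branching enzymes, 2 were called higher, GCNT3 and B4GALT4, with a median of 0.09. B4GALT4, a galactosyltransferase that extends N-acetylglucosamine, had signals of 313, 300.3 and 399 in IL-13 24 h, against 188, 215 and 117 in control 24 h. It rose by 0.95 ± 0.18 (adjusted p = 0.00483) with no overlap, its other probe set stood at 0.10, and the mean of both was called at 0.53. B4GALT4 kept its call under all 18 other settings. C1GALT1C1, the chaperone that C1GALT1 needs, stood at 0.38 ± 0.13 (unadjusted p = 0.00990) and was not called.

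Among 11 tested capping genes 1 was called higher, beside 3.94% of all tested genes. It was ST6GAL1, which adds sialic acid mainly to N-glycans. Its signals were 159, 114 and 113 in IL-13 24 h, against 89.7, 77.1 and 23.6 in control 24 h, and array c of control 24 h stood far below the others. The rise of 1.05 ± 0.27 (adjusted p = 0.0260) was lost without that array (0.63), without array a or c of IL-13 24 h, without the filter and with only these groups, and its other probe sets ran from -0.28 to 0.22. Among 8 tested genes of nucleotide sugar supply 1 was called higher, beside the same 3.94%. It was UAP1, which makes UDP-N-acetylglucosamine. UAP1 had signals of 174, 162 and 201 in IL-13 24 h, against 103, 97.9 and 100.1 in control 24 h, without overlap. It rose by 0.82 ± 0.13 (adjusted p = 0.000945), a call kept under all 17 other settings in which it was tested. Like SLC26A2, UAP1 was lower in control 24 h than in control 0 h (-0.67 ± 0.13, adjusted p = 0.00803), where it had 152, 159 and 168. UAP1 kept this call too under all 17 other settings. Its mean was 179 after 24 h of IL-13 and 159.9 in control 0 h, and that difference was not called.

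Of 4 tested genes of sulfate uptake and activation 2 were called higher, the members SLC26A2 and PAPSS2, with a median of 0.29. Over all tested genes 3.94% were called higher. PAPSS1 is a member too, and the only other tested gene was SUOX, the sulfite oxidase of mitochondria, at 0.09 ± 0.13. This list thus mostly restates the members. The 4 tested sulfotransferases of mucins and glycoproteins (CHST1, CHST4, CHST5 and CHST10) were not called in any direction and ran from -0.34 to -0.09, with a median of -0.22. Their unadjusted p-values ran from 0.0518 to 0.577. In the heparan sulfate list EXT1 alone of 7 was called, and its partner EXT2 stood at -0.21 ± 0.11, while the median was -0.05. HS3ST2, a sulfotransferase of heparan sulfate, stood at -0.53 ± 0.18 and was not called. NDST1, which starts the sulfation of heparan sulfate, was lower in control 24 h than in control 0 h (-0.60 ± 0.16, adjusted p = 0.0399), a call lost whichever of the 6 arrays was left out. Its other probe set stood at -0.93 in that comparison.

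The next counts for IL-13 24 h against control 24 h stand beside 3.94% of all tested genes called higher and 3.07% called lower. Of 14 tested genes of the glycosaminoglycan linker and chondroitin sulfate, 1 was called higher, DSE, an epimerase that makes dermatan sulfate. DSE had 194, 176 and 211 signal units in IL-13 24 h, against 146, 139.9 and 106 in control 24 h, and the rise of 0.60 ± 0.13 (adjusted p = 0.00854) was lost without array c of IL-13 24 h. CHST11, which sulfates chondroitin, was lower in control 24 h than in control 0 h (-0.62 ± 0.12, adjusted p = 0.0125) and lower after 12 h of IL-13 than at 0 h (-0.48 ± 0.12, adjusted p = 0.0327). The first call was lost without array c of control 24 h and the second whichever of the 6 arrays was left out. Of 7 tested proteins that carry heparan sulfate or related chains, SRGN was called higher (0.67 ± 0.17, adjusted p = 0.0245) and SDC1 (-0.40 ± 0.09, adjusted p = 0.0102) and AGRN (-0.56 ± 0.15, adjusted p = 0.0290) lower. SRGN lost its call in 4 of 18 other settings, without array c of IL-13 24 h among them, and SDC1 lost its own in 5 of 18: under all 3 other scalings (-0.29, -0.07 and -0.25), with only the compared groups and without array c of IL-13 24 h. The other probe set of SRGN stood at 0.94 and that of SDC1 at -0.46, each in the direction of its call. AGRN lost its call in 8 of 18 other settings, and its other probe sets lay between -0.59 and 0.46. Of the mucin proteins only CD164 (0.01 ± 0.12) and MUC5AC were bright enough to test. MUC5AC was called lower, by 0.94 on the log2 scale (adjusted p = 0.0245), a call lost in 5 of 16 other settings. Its other probe sets ran from -0.13 to 0.58. Mean signals of MUC5AC were 98.4 in control 0 h, 173 in control 24 h and 75.6 in IL-13 24 h. Neither control 24 h (0.65 ± 0.24, adjusted p = 0.135) nor IL-13 24 h (-0.29 ± 0.24, adjusted p = 0.547) was called against control 0 h.

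In the comparisons with 0 h the calls among the other genes of the lists stand beside the shares of all tested genes given above. After 4 h of IL-13, 0 were called (0.349% higher and 0.872% lower over all genes). After 12 h (1.57% and 2.59%) they were CHST11 and AGRN (-0.63 ± 0.15, adjusted p = 0.0198), both lower. After 24 h (3.4% and 3.47%) SRGN was higher (0.77 ± 0.17, adjusted p = 0.0107) and AGRN (-0.65 ± 0.15, adjusted p = 0.0125) and NDST1 (-0.55 ± 0.16, adjusted p = 0.0412) lower. AGRN had 301, 341 and 237 signal units in IL-13 24 h, against 461, 471 and 477 in control 0 h, without overlap. In control 24 h against control 0 h the calls were GALNT10, higher, and UAP1, CHST11 and NDST1, lower. The calls of AGRN and SRGN after 24 h were lost without array c of IL-13 24 h, that of AGRN after 12 h without array b of IL-13 12 h or any single array of control 0 h, and that of NDST1 whichever of the 6 arrays was left out. Both AGRN calls were also lost with the mean of its probe sets (-0.47 after 12 h and -0.41 after 24 h). The other AGRN sets ran from -0.51 to -0.27 after 12 h and from -0.39 to -0.22 after 24 h. After 24 h the other probe set of SRGN stood at 0.74 and that of NDST1 at -0.82.

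**Figure D5:**
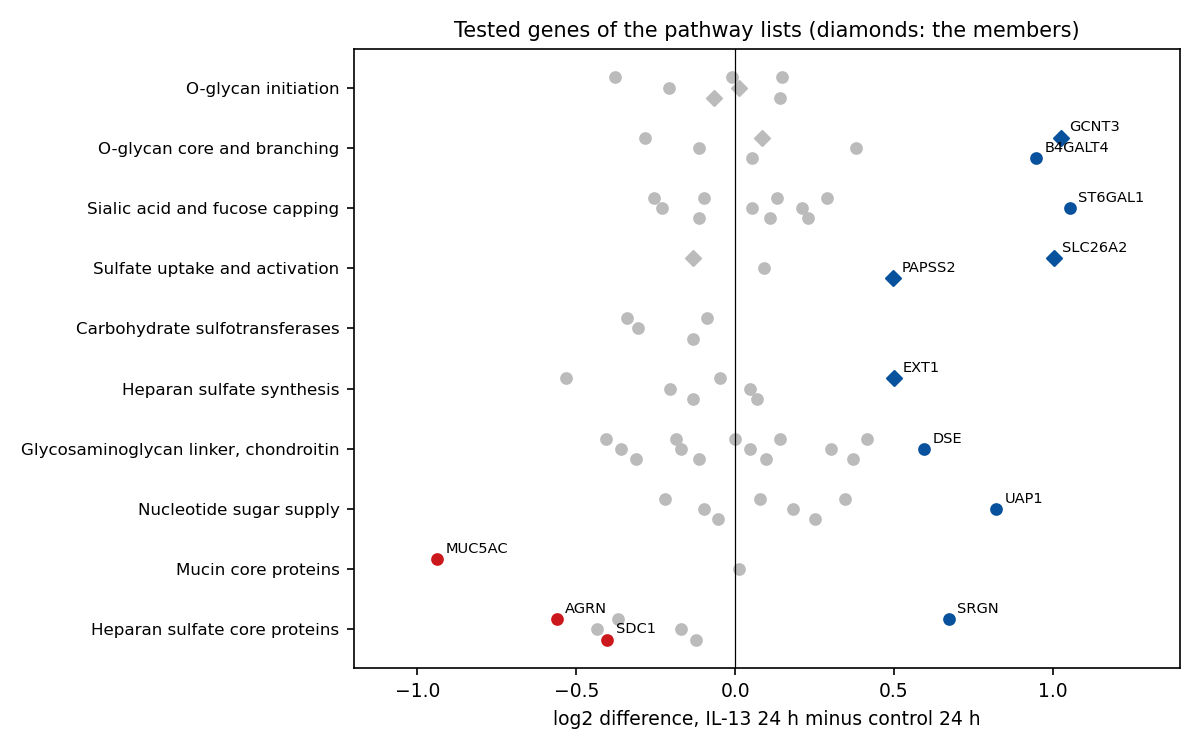
Log2 difference of IL-13 24 h minus control 24 h for each tested gene of the 10 pathway lists; diamonds are the members, circles the other genes, blue and red those called higher and lower, and grey those not called. Called genes are named, and most lists have 1 called gene or none among values spread around 0.

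SLC26A2 had the widest range of group means among the tested members, 1.27 on the log2 scale. The genes whose centred means over the 5 groups lay nearest to its own, by root mean square difference among 6883 genes, were INSIG1 (0.095), ENC1 (0.12) and GLIPR1 (0.14). Of the members GCNT3 was nearest, at rank 23 (0.22), followed by EXT1 at rank 50 (0.26) and PAPSS2 at rank 215 (0.32). PAPSS1, GALNT1, GALNT2 and C1GALT1 ranked 3309 or farther. This is a description over 5 means.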

How the data were processed

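Affymetrix arrays, 15 in all and 3 in each of 5 groups, measured total RNA from A549 cells. The deposited values are intensities per probe set on a linear scale, and the labels do not state how the authors computed them. With 2% trimmed from either end, array means were 150. The groups were taken from the sample titles.

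From these values the arrays were quantile normalized, since their medians differed by 0.269 log2, a pseudocount of 20 (the 25th percentile) was added and log2 taken. Of the 22283 probe sets, 68 were controls, 19065 carried a single symbol, 1043 several and 2107 none. Each of 11963 genes was represented by its brightest probe set, with sets named _x_at used only where the gene had no other. The 6884 genes with a mean log2 over 6.33 (the 50th percentile) were tested. No detection calls were used. With limma 3.58.1 in R 4.3.3, 1 mean per group was fitted over all arrays (10 residual degrees of freedom) with a variance trend, and 5 comparisons were tested two-sided at a Benjamini-Hochberg adjusted p of 0.05. The steps were also run on simulated arrays with known changes. Noise there was drawn independently for each probe set and array, so shared array effects were not covered, and no result rests on that run. Arrays of a group correlated at 0.972 to 0.979, and 3 arrays per group limit the precision.

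The members and the 10 pathway lists were chosen with earlier results of these data known. All members were described, and of each list up to 4 genes past the threshold per comparison; EXT2, SUOX, C1GALT1C1, GALNT6, HS3ST2, CD164 and the sulfotransferases were named after their values were seen. The 3 genes nearest to the member with the widest range of group means were also named. Alternatives tried were 3 other scalings, pseudocounts of 1 and 62.3, a filter at the 75th percentile or none, averaging the probe sets of a gene, each probe set tested alone, only the compared groups, no variance trend, a block for the replicate letter, and fits without each array in turn. Loci and windows before gene starts are from RefSeq on GRCh38.p14, by gene symbol; windows of PAPSS2 and EXT1 were not used here.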

Additional observations from a re-analysis of the deposited data

How the results depend on the processing

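Over the 50 differences of the 10 genes and 875 repeats under other settings, 0 called differences changed sign, 31 called ones were no longer past the threshold and 3 others became called; 60 differences that were not called changed sign. With median scaling the called genes numbered 1236 for IL-13 24 h against control 24 h (482 as reported), 1077 for control 24 h against control 0 h (249) and 313 for IL-13 24 h against control 0 h (473), and the members called numbered 0 at 4 h (2) and 1 at 12 h (2). Scaling to the tested genes gave 378 and no filter 154 for control 24 h against control 0 h. With only the compared groups, 243 genes were called for IL-13 24 h against control 24 h, 0 members for control 24 h against control 0 h, and 1 member at 4 h. The mean of probe sets also left 1 member at 4 h and put GALNT10 at -0.0053 in control 24 h against control 0 h. Leaving out 1 array gave 192 to 537 called genes for IL-13 24 h against control 24 h, the lowest without array c of IL-13 24 h. It gave 66 to 225 for control 24 h against control 0 h, 36 to 74 at 4 h, 136 to 187 at 12 h and 210 to 353 at 24 h against control 0 h. Members called ran from 0 to 1 for control 24 h against control 0 h, from 1 to 2 at 4 h, from 1 to 2 at 12 h and from 2 to 4 at 24 h against control 0 h. The causes of these shifts were not tested, except that dropping arrays or groups leaves fewer arrays for the fit.

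The replicate letters did not pair the arrays in the 5 comparisons: deviations of same-letter arrays correlated at -0.22 to 0.11 over 15 pairs. In 2 of the 15 pairs the array of the first-named group correlated best with its own letter in the other group. With the letter as a replicate block, 394 genes were called for IL-13 24 h against control 24 h and 379 against control 0 h, where EXT1 and NDST1 were no longer called; NDST1 in control 24 h against control 0 h and CHST11 at 12 h were the other named genes to lose a call. The brightest probe sets of GALNT3, GCNT1 and C1GALT1, which lie near the filter, have standard errors of 0.17 to 0.33 and allow no statement on smaller differences.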
